A study of Mus musculus with 36 samples.

Results

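Cpd-60 was compared with suberoylanilide hydroxamic acid (SAHA) in the medial prefrontal cortex (PFC) of mice treated with either histone deacetylase (HDAC) inhibitor. The comparison comprised the 6 arrays labelled PFC with Cpd-60 at 45 mg/kg or with SAHA at 25 mg/kg, out of 36 arrays in the series, with 3 arrays for each drug. Each array held RNA pooled from 2 adult male C57BL/6J mice, and 3 further PFC arrays from mice given vehicle alone were fitted with them. All mice received 10 daily intraperitoneal injections, and tissue was taken 1 h after the last one. Injection volume was 7.5 mL/kg for Cpd-60 and for vehicle and 5 mL/kg for SAHA. The doses of the drugs differed, so drug, dose and injection volume cannot be told apart in this comparison. RNA from nucleus accumbens (NAc) and hippocampus (HIP) of the same pools was also on the arrays.

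Histone deacetylases remove acetyl groups from lysines of histones and other proteins, and the class I enzymes act mostly inside repressor complexes with proteins such as Sin3a, the CoREST and NuRD subunits and the nuclear receptor corepressors. Cpd-60 is a benzamide, a slow-binding type of inhibitor, with selectivity for HDAC1 and HDAC2. SAHA is a hydroxamic acid, a fast-acting type of zinc-binding inhibitor that reaches class I and class II enzymes. In the brain these enzymes bear on transcription that follows neuronal activity and on transcription by hormone receptors, among them the glucocorticoid receptor.

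In the 6 arrays the cortical neuron genes Slc17a7, a vesicular glutamate transporter, and Tbr1, a transcription factor of deep-layer neurons, were detected in all 6. The log2 normalized intensity of Tbr1 ran from 9.07 to 9.43, while its mean was 6.76 in NAc and 7.52 in HIP. The cortical marker Neurod6 was detected on 0 of the 6 arrays. The striatal receptor gene Adora2a was also detected on 0 of the 6 and Drd2 on 3. Choroid plexus transthyretin (Ttr) was between 7.52 and 9.51, against a mean of 12.45 in HIP. The title and source of Cpd-60 pool 2 name mice 3 and 4, whereas its description line names mice 1 and 2. If that line were right, Cpd-60 would have fewer pools of different animals than 3. Pools 1 and 2 shared 0.269% of raw probe values, within the range of 0.102% to 0.417% seen for the other pairs, so the arrays were not copies of one another. The first principal component of the 9 PFC arrays held 41.0% of the variance and set Cpd-60 pool 3, vehicle pool 3 and SAHA pool 1 apart from the other arrays. Several of the counts below are therefore also given without Cpd-60 pool 3, the array farthest out.

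No single transcript separated the drugs after correction for multiple testing. Of 21513 transcripts tested with limma, 0 (0%) passed an adjusted p of 0.05, and the smallest adjusted p was 0.722. At an unadjusted p under 0.05 there were 1154 transcripts, against 1075.65 that chance alone would give. With a change of at least 1.2-fold as well, 173 transcripts (0.804%) were higher under Cpd-60 and 136 (0.632%) were lower. The analysis of variance with Tukey's test that the study's methods name gave 104 in all at these thresholds. The median difference of the 309 transcripts was 1.24-fold in either direction. Without Cpd-60 pool 3 the count was 1318, of which 7 passed an adjusted p of 0.05 in limma, and without SAHA pool 1 it was 578. Those 7 were Nfkbia, Txnip, Ddit4, Mfsd2, Rhou and Lrrc33, higher under Cpd-60, and Bdnf, lower. For a single transcript, an exact permutation test of 3 pools against 3 cannot give a two-sided p below 0.1. Below, a gene is called higher or lower where its unadjusted limma p was under 0.05, and the standard error (SE) of the difference and the adjusted p are given. At this threshold about 1 transcript in 20 passes by chance, and with all pools no gene passed an adjusted p of 0.05.

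**Figure D1:**
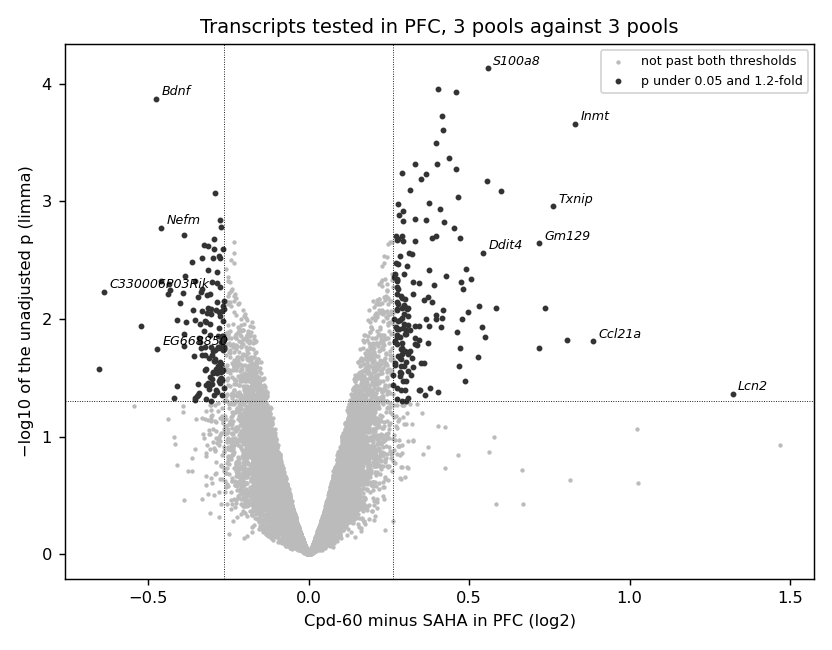
Log2 difference between Cpd-60 and SAHA (x axis, 3 pools against 3) against −log10 of the unadjusted limma p (y axis) for the 21513 transcripts tested in PFC, with dotted lines at the 1.2-fold and 0.05 thresholds. Black points are the 309 transcripts past both lines, and S100a8, Bdnf and Inmt lie among the highest of them while Lcn2 lies farthest to the right of the black points.

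Among the genes higher under Cpd-60, those with the largest differences included secreted and blood-borne defence proteins, a methyltransferase, and genes that respond to nutrients and stress hormone. Genes were named from those with all 3 Cpd-60 pools above all 3 SAHA pools, or all below, which held for 2359 of all transcripts (11.0%). The rule gave 108 candidate genes that were higher and 65 that were lower, and the 15 with the largest difference in each direction are described. Since the rule used these differences, the values in PFC are a description of the genes it chose. Values are log2 normalized intensities of pools 1, 2 and 3 in that order.

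Lcn2, which encodes the iron-siderophore carrier lipocalin 2, was at 6.90, 9.77 and 7.17 under Cpd-60 and at 6.63, 6.61 and 6.63 under SAHA. Pool 2 alone accounted for most of its difference, and the vehicle pools were between 6.58 and 6.76. The fitted difference was 1.32 (SE 0.57, adjusted p = 0.914), and it was 0.41 without that pool. Lcn2 was not well above background (detection p not above 0.01) on any SAHA array. With the lowest signal detected on each array taken for SAHA, the Cpd-60 mean was at least 2.33-fold higher. Pool 2 raised that mean, so the bound does not hold for each pool. Inmt, an N-methyltransferase of indoleamines, was at 8.35, 7.97 and 8.62 under Cpd-60 and at 7.63, 7.44 and 7.37 under SAHA. All Cpd-60 pools were above every SAHA and vehicle pool, with a difference of 0.83 (SE 0.15, adjusted p = 0.766), or 1.78-fold. A second Inmt probe gave 0.46 (SE 0.08). S100a8, a calcium-binding protein of neutrophils and other myeloid cells, was at 7.03, 7.28 and 7.32 under Cpd-60 and at 6.71, 6.65 and 6.60 under SAHA. Here too no pool of the drugs overlapped, and the fitted difference was 0.56 (SE 0.09, adjusted p = 0.722). S100a8 was not well above background on any SAHA array either, so that the Cpd-60 mean was at least 1.40-fold higher. The fitted value ranged from 0.50 to 1.48 over the alternatives. The chemokine gene Ccl21a, which has near-identical copies in the mouse genome that one probe may not tell apart, was at 9.03, 8.86 and 8.81 under Cpd-60 and at 8.81, 7.45 and 7.78 under SAHA. The lowest Cpd-60 pool and the highest SAHA pool differed by less than the rounding of these values, and the difference was 0.89 (SE 0.31, adjusted p = 0.892).

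Txnip encodes a thioredoxin-binding arrestin-like protein that restrains glucose uptake, and Arrdc4 encodes a relative with a like role. Txnip was at 8.60, 8.92 and 8.08 under Cpd-60 and at 7.90, 7.66 and 7.75 under SAHA. The groups did not overlap, and the difference was 0.76 (SE 0.17, adjusted p = 0.892), or 1.69-fold, with 0.46 (SE 0.15) at a second probe. Arrdc4 was higher by 0.49 (SE 0.20), largely through Cpd-60 pool 2 at 8.51 against 7.74 and 7.56 in pools 1 and 3. Ddit4, an inhibitor of mTOR signalling that is induced by stress and by glucocorticoids, was at 8.89, 9.12 and 8.44 under Cpd-60 and at 8.22, 8.38 and 8.21 under SAHA. Every Cpd-60 pool was higher, pool 3 by the least, and the difference was 0.54 (SE 0.14, adjusted p = 0.892). Sesn1, a sestrin that also restrains mTOR signalling, was higher by 0.51 (SE 0.14), with other probes at 0.33 and 0.30. Gm129, now named Ciart and encoding a repressor of the circadian clock, was at 8.50, 8.76 and 8.00 under Cpd-60 and at 7.76, 7.89 and 7.45 under SAHA. No pool overlapped, its difference was 0.72 (SE 0.18, adjusted p = 0.892), and its other probes gave 0.48 and 0.37. The remaining genes named as higher were the cyclin-dependent kinase inhibitor Cdkn1c at 0.47, the cold-inducible RNA-binding protein Cirbp at 0.47, the matrix protein Mgp at 0.48, Flywch2 at 0.49, the interferon-induced membrane protein Ifitm3 at 0.50 and the splicing factor Sfrs5 (now Srsf5) at 0.53. A second Sfrs5 probe gave 0.10 (SE 0.11).

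**Figure D2:**
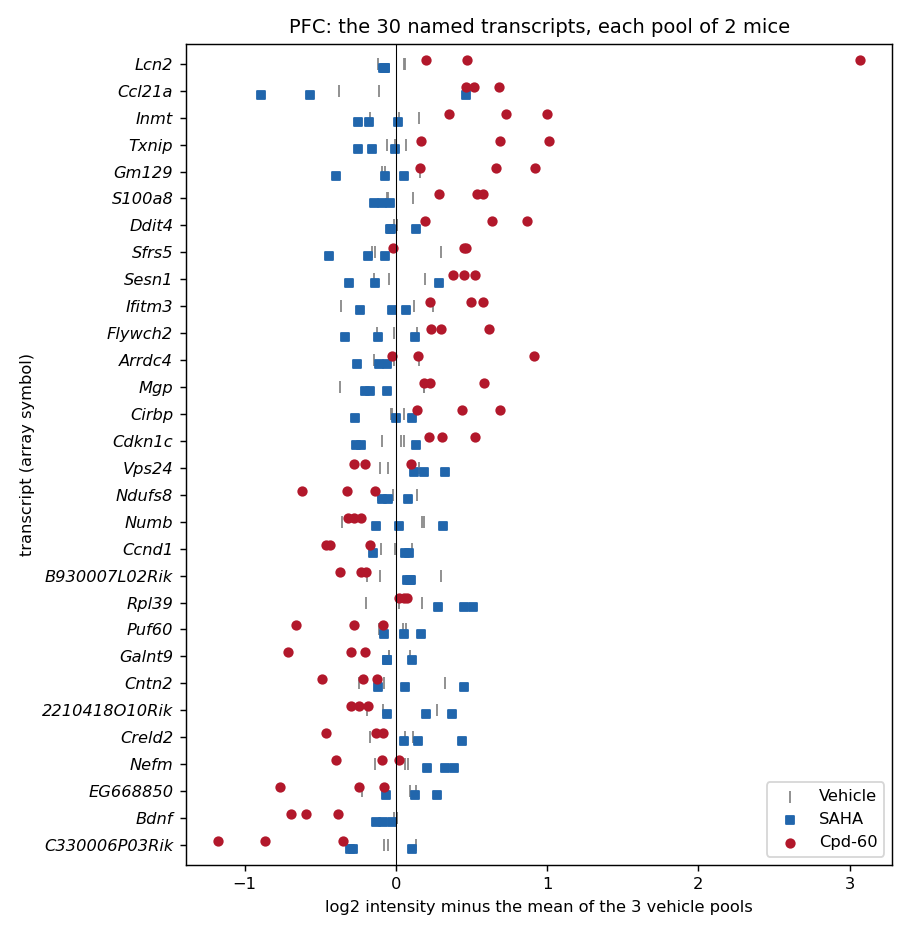
Log2 intensity of each pool of 2 mice minus the mean of the 3 vehicle pools (x axis) for the 30 genes named in PFC (y axis), with Cpd-60 as red circles, SAHA as blue squares and vehicle as grey ticks. Cpd-60 and SAHA pools do not overlap in any row, as the naming rule required, and Cpd-60 pool 2 of Lcn2 stands about 3 log2 units from the others.

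The genes lower under Cpd-60 included a neuronal growth factor, a neurofilament and parts of the ribosome and the respiratory chain. Bdnf, the brain-derived neurotrophic factor, was at 8.23, 8.33 and 8.54 under Cpd-60, at 8.89, 8.84 and 8.79 under SAHA and at 8.92, 8.90 and 8.93 under vehicle. All Cpd-60 pools lay below all 6 other pools, and the difference from SAHA was -0.48 (SE 0.08, adjusted p = 0.722), with SAHA 1.39-fold higher. The 4 other Bdnf probes that were tested gave differences between -0.14 and -0.02, none with a p under 0.05, so the result rested on 1 of 5 probes. C330006P03Rik, a transcript known by its clone name, was at 9.37, 9.68 and 10.19 under Cpd-60 and at 10.26, 10.24 and 10.65 under SAHA. Its groups did not overlap but came within 0.1 log2 units, and its difference of -0.64 (SE 0.18, adjusted p = 0.892) was the largest among the genes named as lower. Nefm, the medium neurofilament subunit of axons, was at 8.09, 8.51 and 8.39 under Cpd-60, at 8.87, 8.69 and 8.81 under SAHA and at 8.54, 8.56 and 8.35 under vehicle. Here SAHA lay above both other groups, by 0.46 from Cpd-60 (SE 0.11, adjusted p = 0.892) and by 0.31 from vehicle (SE 0.11). Rpl39, a protein of the large ribosomal subunit, had the same order, with Cpd-60 at 10.65, 10.67 and 10.62, SAHA at 10.88, 11.05 and 11.11 and vehicle at 10.62, 10.41 and 10.77. SAHA was again above every other pool, by 0.41 from vehicle (SE 0.10), while Cpd-60 differed from vehicle by 0.05 (SE 0.10).

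Ccnd1, the cell cycle protein cyclin D1, was at 8.65, 8.67 and 8.94 under Cpd-60 and at 9.19, 9.17 and 8.96 under SAHA. Pool 3 of each drug nearly met, and the difference was -0.35 (SE 0.10, adjusted p = 0.892), with -0.15 and -0.17 at other probes. Creld2, a chaperone-like protein of the endoplasmic reticulum, differed by -0.44 (SE 0.13), and its second probe by -0.36 (SE 0.11). The other genes named as lower differed by -0.47 to -0.34. They were EG668850 (now the ribosomal protein pseudogene Rpl31-ps16, whose probe may also take signal from Rpl31), 2210418O10Rik, the axonal adhesion protein Cntn2, the glycosyltransferase Galnt9, the splicing factor Puf60, B930007L02Rik (now Dcaf1), the Notch inhibitor Numb, the complex I subunit Ndufs8 and the ESCRT subunit Vps24 (now Chmp3). Second probes of Numb, Galnt9, Cntn2 and Puf60 gave differences between -0.10 and 0.00, none of which passed the threshold.

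The named genes were also read against vehicle. Both drugs were set against the same 3 vehicle pools, so the values are given side by side. The Cpd-60 mean was farther from the vehicle mean than the SAHA mean was for 15 of the 15 genes named as higher and for 12 of the 15 named as lower. For 10 of the 15 genes named as higher, Cpd-60 differed from vehicle at an unadjusted p under 0.05, and for SAHA this held for 0 of them in limma. Over all transcripts 2.25% were higher and 2.46% lower under Cpd-60 than under vehicle, and for SAHA these shares were 1.02% and 0.902%. Of the 15 genes named as lower, 7 passed for Cpd-60 against vehicle and 2, Nefm and Rpl39, for SAHA against vehicle. The drug pools that chose these genes enter each of these comparisons, so nothing is read from the counts. The benzamide CI-994, whose pools had no part in the choice, differed from vehicle at this threshold for 6 of the 30 genes, beside 3.77% of all transcripts. B930007L02Rik at 0.27 and Rpl39 at 0.29 were above vehicle under CI-994, although both were named as lower under Cpd-60. The size of the drug difference changed between the pair of BeadChips on which the PFC arrays were run, one with Cpd-60 pools 1 and 2 and SAHA pool 1, and the other with Cpd-60 pool 3 and SAHA pools 2 and 3. Ddit4 differed by 0.78 within the former and by 0.14 within the latter, Txnip by 0.86 and 0.37, Bdnf by -0.61 and -0.28, and Inmt by 0.53 and 1.21.

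Of the gene lists examined, the glucocorticoid-induced genes had the largest share of members higher under Cpd-60. Corticosterone released by stress binds the glucocorticoid receptor, which leaves its Hsp90 chaperone complex, enters the nucleus and binds palindromic DNA elements near genes such as Sgk1, Tsc22d3 and Fkbp5. Of 27 genes in the list, 12 passed as higher and 0 as lower in limma, a share of 44.4%, against 453 of 15502 genes (2.92%) higher and 401 (2.59%) lower over all genes tested. The median difference was 0.25 in the list and -0.01 over all genes, and 25 of the 27 differences were positive. The study had named 4 of these genes from these same samples, and without them 8 of 23 were higher, with a median of 0.24. The list itself was chosen with earlier results of these data known, so these shares are a description and no independent evidence. The mean log2 intensity of the list was 8.61, 8.93 and 8.44 in the Cpd-60 pools and 8.37, 8.36 and 8.35 in the SAHA pools. Every Cpd-60 pool was above every SAHA pool and every vehicle pool, the last of which lay between 8.29 and 8.31. The count was 4 with the analysis of variance of the methods, 7 without Cpd-60 pool 2 and 20 without Cpd-60 pool 3, and the median was 0.32 within one BeadChip and 0.08 within the other. In this bulk tissue, more cells of a type and more RNA per cell cannot be told apart.

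Sgk1, a kinase that regulates ion channels and transporters, was at 10.53, 10.56 and 9.78 under Cpd-60 and at 10.05, 9.68 and 9.57 under SAHA. Cpd-60 pool 3 lay within the SAHA range, and the difference was 0.53 (SE 0.19, adjusted p = 0.913). Nfkbia, the inhibitor of NF-kappaB, was at 8.50, 8.49 and 7.71 under Cpd-60 and at 7.59, 7.75 and 7.60 under SAHA. It too overlapped at pool 3, with a difference of 0.58 (SE 0.18, adjusted p = 0.892). Tsc22d3, the glucocorticoid-induced leucine zipper, was at 9.59, 9.97 and 9.39 under Cpd-60 and at 9.19, 9.33 and 9.19 under SAHA. These groups did not overlap, and the difference was 0.42 (SE 0.13, adjusted p = 0.892) with 0.60 (SE 0.13) at a second probe. Mfsd2 (now Mfsd2a), a lipid transporter of the blood-brain barrier, was at 8.96, 9.09 and 8.60 under Cpd-60 and at 8.46, 8.43 and 8.40 under SAHA. Its groups were apart, and its difference was 0.45 (SE 0.11, adjusted p = 0.892). Besides Lcn2 and Ddit4, the other members that passed were Angptl4 at 0.47, the lipase Pnpla2 at 0.38, the sulfotransferase Sult1a1 at 0.34, metallothionein Mt1 at 0.29, Arrdc2 at 0.26 and the lipid droplet protein S3-12 (now Plin4) at 0.22. A dimmer Arrdc2 probe gave 0.05 (SE 0.08) and did not pass. Fkbp5, a co-chaperone that dampens the receptor, was at 0.35 (SE 0.17) and Cdkn1a was at 0.40, and neither passed. Per1 at -0.11 and Hif3a at -0.17 were the members with negative values, and neither passed. Among 6 genes of the receptor machinery, Hsd11b1, which regenerates active corticosterone, was higher by 0.32 (SE 0.12) and the co-chaperone Fkbp4 lower by 0.25 (SE 0.08).

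Promoters of genes from the comparison were searched because the list was defined by a DNA-binding receptor. The sequences are the 250 bases before the RefSeq transcript start in GRCm38.p6, read 5′ to 3′ on the strand of the gene, and 39 of 49 genes chosen for the search matched an entry. The palindromic glucocorticoid response element, whose inner core is ACANNNTGT with a G placed before and a C after it, each 1 base away, was sought on both strands. It was present in 2 of the 11 matched genes among the 12 glucocorticoid-induced genes that passed (Sgk1 and Mt1), in 1 of the 13 matched genes named as higher (Txnip) and in 0 of the 10 matched genes named as lower. Among all 32851 promoters of this length 0.387% held the full element, and 5.84% held the inner core. The E-box CACGTG, bound by the clock activators, was in 6.02%. In the same order of sets, the inner core was in 3 of the 11, 2 of the 13 and 1 of the 10 matched genes. The E-box was in 1, 2 and 1 of them. A match of letters is not a binding site, and genes with several starts had more chances to match. The 4 promoters printed are those with a full element or with repeated E-boxes, and capitals mark these motifs. The element lies 172 to 160 bases before the start in Txnip, 188 to 176 in one of the starts of Sgk1 and 94 to 82 in Mt1. Gm129 has 3 E-boxes, at 116 to 111, 58 to 53 and 44 to 39 bases before its start, and the capitals at the beginning of the Sgk1 sequence are an E-box as well.
Txnip, chr3:96557707-96557956, plus strand: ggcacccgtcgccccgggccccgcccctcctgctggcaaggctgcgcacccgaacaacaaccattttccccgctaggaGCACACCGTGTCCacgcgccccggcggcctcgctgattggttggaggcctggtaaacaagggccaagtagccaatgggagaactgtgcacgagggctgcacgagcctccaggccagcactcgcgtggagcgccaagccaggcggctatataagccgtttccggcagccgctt
Sgk1, chr10:21993640-21993889, plus strand: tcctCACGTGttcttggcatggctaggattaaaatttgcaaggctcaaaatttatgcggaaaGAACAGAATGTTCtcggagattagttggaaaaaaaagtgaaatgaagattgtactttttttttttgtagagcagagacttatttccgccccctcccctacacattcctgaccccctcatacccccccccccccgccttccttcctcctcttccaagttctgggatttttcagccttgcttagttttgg
Mt1, chr8:94178839-94179088, plus strand: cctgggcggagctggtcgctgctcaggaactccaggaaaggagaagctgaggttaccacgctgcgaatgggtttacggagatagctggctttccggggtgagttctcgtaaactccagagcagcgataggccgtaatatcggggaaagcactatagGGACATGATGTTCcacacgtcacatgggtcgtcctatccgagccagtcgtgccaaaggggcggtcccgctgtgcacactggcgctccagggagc
Gm129 (Ciart), chr3:95882229-95882478, minus strand: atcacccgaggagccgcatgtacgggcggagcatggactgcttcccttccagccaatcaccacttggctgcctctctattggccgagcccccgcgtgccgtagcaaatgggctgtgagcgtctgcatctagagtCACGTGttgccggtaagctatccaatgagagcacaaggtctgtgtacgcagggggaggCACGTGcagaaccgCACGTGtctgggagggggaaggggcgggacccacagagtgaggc

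**Figure D3:**
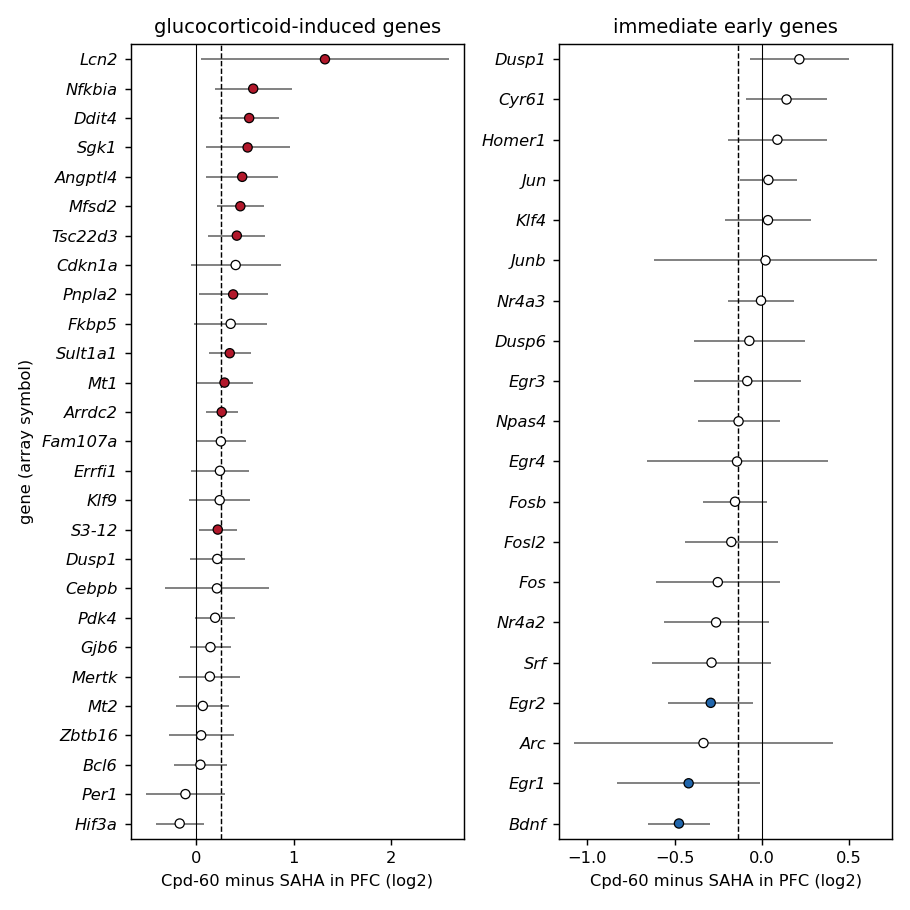
Log2 difference between Cpd-60 and SAHA in PFC (x axis) for each gene tested of the glucocorticoid-induced list (27 genes) and the immediate early list (20 genes), with 95% confidence intervals from limma. Filled points passed an unadjusted p of 0.05, and the dashed lines mark the list medians of 0.25 and -0.14.

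Genes that neurons switch on with activity leaned towards lower values under Cpd-60 than under SAHA. Immediate early genes encode transcription factors and effectors induced within minutes of synaptic input, and their products, with Bdnf, take part in lasting changes of synapses. Of 20 genes 3 were lower (15%, beside 2.59% of all genes), 0 were higher in limma, and the median was -0.14. Egr1, a zinc finger factor, was at 10.90, 11.00 and 11.71 under Cpd-60 and at 11.56, 11.57 and 11.73 under SAHA. Cpd-60 pools 1 and 2 were low and pool 3 lay within the SAHA range, with a difference of -0.42 (SE 0.19, adjusted p = 0.914). Egr2 had the same layout, at 6.85, 6.81 and 7.27 under Cpd-60 and at 7.24, 7.33 and 7.25 under SAHA, and a difference of -0.29 (SE 0.11, adjusted p = 0.914). Bdnf was the other. Arc, a synaptic scaffold gene, was at -0.33 without passing, and Dusp1, which glucocorticoids also induce, at 0.22 without passing. Without Cpd-60 pool 3 the count was 7, without Cpd-60 pool 1 or SAHA pool 2 it was 1, and the list median was -0.12 and -0.02 within the BeadChips. Mean log2 intensity of the list was 8.12, 8.27 and 8.35 under Cpd-60 and 8.31, 8.40 and 8.41 under SAHA. The vehicle pools, at 8.31, 8.27 and 8.25, lay within the range of the Cpd-60 pools.

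Histone genes that passed were also lower under Cpd-60 than under SAHA. Of 41 histone genes 7 were lower (17.1%, beside 2.59% of all genes) and 0 were higher in limma. In the list 33 differences were negative and the median was -0.09. All but H2afj encode histone H2B, whose near-identical gene copies probes may not tell apart. Hist1h2be (now H2bc6) was at 8.85, 9.06 and 9.36 under Cpd-60 and at 9.40, 9.35 and 9.41 under SAHA. The groups met at Cpd-60 pool 3, and the difference was -0.30 (SE 0.11, adjusted p = 0.914). Hist1h2bh (now H2bc9) was at 8.36, 8.54 and 8.70 under Cpd-60 and at 8.74, 8.74 and 8.93 under SAHA, which did not overlap, with a difference of -0.27 (SE 0.10, adjusted p = 0.914). The rest were Hist1h2bk, Hist1h2bm, Hist1h2bf, Hist1h2bn and the H2A gene H2afj, at -0.23 to -0.18. The count ranged from 1 without Cpd-60 pool 1 to 12 without Cpd-60 pool 3, and it was 3 without Cpd-60 pool 2 or SAHA pool 1 and 2 without SAHA pool 3. It was 2 with neqc normalization and 0 with the analysis of variance of the methods, and the median was -0.10 and -0.02 within the BeadChips. Other probes of Hist1h2be and Hist1h2bk gave -0.24 to -0.10, none passing.

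Chaperone genes moved in both directions. Of 28 heat shock and chaperone genes 5 were lower (17.9%) and 2 higher (7.14%) under Cpd-60, with a median of -0.06. Over all genes 2.59% were lower and 2.92% higher. Hsp90b1, the Hsp90 form of the endoplasmic reticulum, was at 8.87, 8.91 and 9.19 under Cpd-60 and at 9.15, 9.48 and 9.90 under SAHA. Its groups overlapped, and its difference of -0.52 (SE 0.17, adjusted p = 0.892) was the largest of the list. Cct3, a subunit of the TRiC folding chamber, was lower by 0.27 at its brightest probe but at -0.02 and -0.01 at its others, and the Hsp40 family members Dnajb5, Dnajb1 and Dnajb9 by 0.24, 0.21 and 0.19. Hspa2, an Hsp70 family member, was at 10.06, 9.97 and 10.00 under Cpd-60 and at 9.73, 9.74 and 9.69 under SAHA. These pools were well apart, with a difference of 0.29 (SE 0.06, adjusted p = 0.892), and the mitochondrial chaperone Hspa9 was higher by 0.23 (SE 0.08). Second probes gave 0.11 (SE 0.09) for Hspa2 and 0.12 (SE 0.07) for Hspa9 and did not pass. The count of lower genes was 6 without Cpd-60 pool 3 and 2 without SAHA pool 3. It was 3 without Cpd-60 pool 1, SAHA pool 2, vehicle pool 1 or vehicle pool 2. The list median was -0.08 within one BeadChip and 0.03 within the other.

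**Figure D4:**
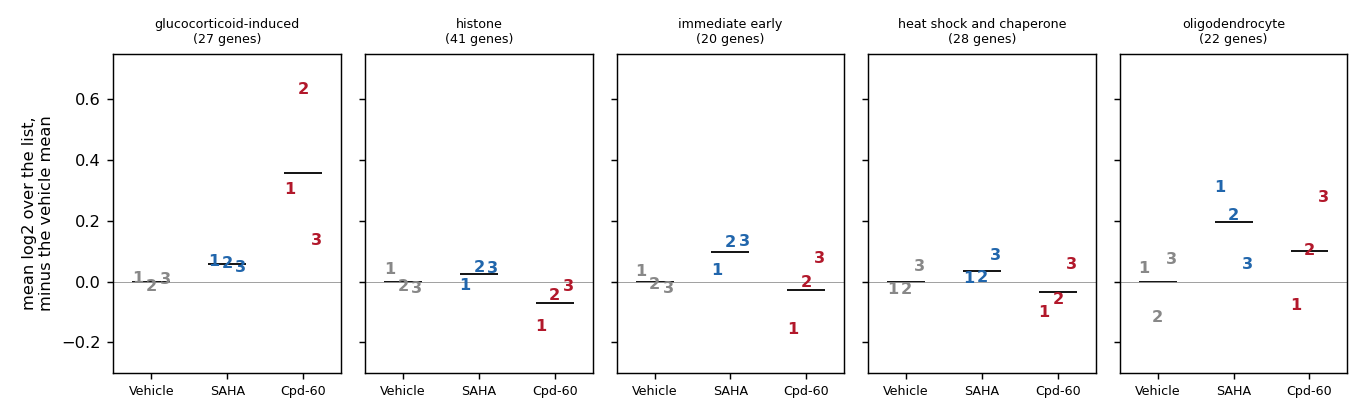
Mean log2 intensity over the genes of 5 lists in each pool of the PFC, minus the mean of the vehicle pools (y axis), by treatment (x axis). Digits are pool numbers and bars are group means, and of the 5 panels only the glucocorticoid-induced and histone ones have Cpd-60 and SAHA pools that do not overlap, the histone ones by less than 0.01.

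Clock genes were divided. Of 16 genes tested 3 were higher (18.75%) and 2 lower (12.5%) under Cpd-60, with a median of 0.02. Over all genes 2.92% were higher and 2.59% lower. With Gm129, the output factors Tef at 0.26 (SE 0.10) and Dbp at 0.23 (SE 0.10) were higher, with a second Tef probe at 0.12 (SE 0.08). The repressor Per2 was at 8.90, 8.75 and 9.18 under Cpd-60 and at 9.21, 9.19 and 9.13 under SAHA. Pool 3 of Cpd-60 lay within the SAHA range, and the difference was -0.23 (SE 0.10, adjusted p = 0.914). Bhlhb2 (now Bhlhe40) was lower by 0.31 (SE 0.12).

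Genes of the HDACs themselves and their complexes were read next. Of 28 genes of class I HDACs and corepressors 2 were higher (7.14%, beside 2.92% of all genes) and 0 lower in limma. The median was 0.03, with a range of -0.39 to 0.42. Tbl1xr1, a subunit of the nuclear receptor corepressor complexes that hold HDAC3, was at 9.59, 9.63 and 9.71 under Cpd-60 and at 9.36, 9.20 and 9.10 under SAHA. Its groups were clearly apart, with a difference of 0.42 (SE 0.08, adjusted p = 0.766). Rbbp4, a histone-binding subunit of the Sin3 and NuRD complexes, was higher by 0.21 (SE 0.06). Dimmer probes of Tbl1xr1 and Rbbp4 gave 0.11, 0.10 and -0.10, without passing. Sin3b, a scaffold of Sin3 complexes, had the lowest value at -0.39 (SE 0.18, adjusted p = 0.914) and did not pass. Hdac2 differed by -0.14 (95% confidence interval -0.70 to 0.42) and Hdac3 by 0.04 (-0.21 to 0.28). Of 10 genes of class II and IV HDACs and the Mef2 factors they bind, 0 passed in either direction.

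Markers of other cell types were examined beside these groups. The summed linear intensity of 13 reactive astrocyte genes was 2500 to 3695 under Cpd-60 and 2265 to 2454 under SAHA, which did not overlap, and Lcn2 is a member of that list. Under vehicle it was 2101 to 2534, a range that holds the lowest Cpd-60 pool. No sum was taken without Lcn2. Of these 13 genes 2 were higher (15.4%, beside 2.92% of all genes) and 0 lower in limma, with a median of 0.12. Besides Lcn2, Vim, an intermediate filament of reactive glia and vessels, was at 8.00, 7.97 and 8.00 under Cpd-60 and at 7.65, 7.73 and 7.54 under SAHA. The groups were apart by more than their spread, with a difference of 0.35 (SE 0.07, adjusted p = 0.892), whereas Gfap differed by 0.17 (SE 0.27) with overlapping pools. Of 16 microglial genes Fcer1g and Cd68 were higher, by 0.26 and 0.20, of 17 astrocyte genes Cbs and Slc1a2, by 0.25 and 0.23, and of 17 mural and leptomeningeal genes Igfbp2 and Myl9, by 0.24 and 0.23. Other probes of Slc1a2 gave -0.13 to 0.14 and one of Myl9 0.01, without passing. None of the genes of these 3 lists was lower at the threshold in limma. The shares higher were 12.5%, 11.8% and 11.8%, beside 2.92% of all genes. The list medians were only 0.01, 0.05 and 0.07, and 6, 6 and 4 of the differences were negative. Summed intensity of the microglial list was 4640 to 4764 under Cpd-60 and 4324 to 4743 under SAHA, which overlapped. Summed intensity of the mural and leptomeningeal list was 5545 to 6566 under Cpd-60 and 4909 to 6332 under SAHA, and of 3 blood genes 9135 to 13376 and 8878 to 9410, with vehicle at 5356 to 6054 and at 9411 to 14492. The part of these cells in the differences of Lcn2, S100a8, Ccl21a, Mgp and Inmt was not tested.

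Oligodendrocyte genes were lower under Cpd-60 than under SAHA on balance, but not on both BeadChips. Of 22 genes 3 were lower (13.6%, beside 2.59% of all genes) and 0 higher in limma. The median was -0.11, and it was -0.31 within one BeadChip and 0.15 within the other. Mbp, a main protein of compact myelin, was at 11.96, 12.24 and 12.34 under Cpd-60, at 12.60, 12.63 and 12.33 under SAHA and at 12.32, 12.06 and 12.21 under vehicle. SAHA pools 1 and 2 were highest, Cpd-60 differed from SAHA by -0.34 (SE 0.12, adjusted p = 0.892), and 4 other Mbp probes gave -0.13 to 0.07. The lipid hydroxylase Fa2h was lower by 0.30. The count was 9 without Cpd-60 pool 3, 0 without Cpd-60 pool 1 or with the analysis of variance of the methods, and 1 without SAHA pool 2. Without SAHA pool 1 the median was -0.00024. Summed intensity of the list was 13961 to 19493 under Cpd-60 and 16153 to 20198 under SAHA, so the ranges overlapped. Under vehicle it was 14017 to 16541, within the Cpd-60 range. Mean log2 intensity of the list was 8.58, 8.76 and 8.94 under Cpd-60 and 8.97, 8.88 and 8.72 under SAHA. It was 8.71, 8.54 and 8.74 under vehicle, so the list was not below vehicle in every Cpd-60 pool.

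Of 60 ribosomal protein genes 4 were lower under Cpd-60 and 0 higher in limma, with a median of -0.03. Rpl39, Rpl13a, Rpl7a and Rpl27a differed by -0.36, -0.32, -0.27 and -0.17, and related pseudogenes may share their signal. Of 62 genes of oxidative phosphorylation 5 were lower and 1 higher, with a median of -0.04. Those lower were Ndufs8, Sdhb, Ndufb9, Ndufs3 and Cox6b1, subunits of complexes I, II and IV, at -0.34 to -0.20, and Uqcrfs1 of complex III, the one higher, was not well above background in either group. A second Cox6b1 probe gave -0.0030 and a second Sdhb probe -0.16, and neither passed. These shares were 6.67% and 8.06%, beside 2.59% of all genes that were lower. Of the 13 genes that the study named from its arrays, 5 were higher, namely Sgk1, Mfsd2, Tsc22d3, Sult1a1 and Usp54 at 0.21, and Per2 was lower. Igfbp5, which encodes a binding protein of insulin-like growth factors, was at -0.05 (SE 0.11) at its brightest probe, while 2 other probes were lower by 0.26 (SE 0.09) and 0.20 (SE 0.08). As the study chose these genes on these samples, their count is no independent evidence. Agxt2l1 (now Etnppl), an astrocyte enzyme of phosphoethanolamine breakdown, was at 7.76, 7.97 and 7.24 under Cpd-60 and at 7.47, 7.35 and 7.31 under SAHA. Its groups overlapped, and the difference of 0.28 (SE 0.17) did not pass.

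The same genes were then read in NAc and HIP, on arrays that did not choose them but that came from the same pools of mice. All 15 genes named as higher had a positive difference in NAc and 14 of 15 in HIP, where Sesn1 was at -0.10. In NAc 5 of the 15 passed in the same direction, where 1.74% of all transcripts were higher, and in HIP 8 of the 15 passed, where 9.32% were. Of the 15 genes named as lower, 14 were negative in NAc and 10 in HIP. In NAc 2 of these passed as lower, beside 1.63% of all transcripts, and in HIP 5 passed, beside 8.53%. Named genes past the threshold in the opposite direction numbered 0 in NAc and 0 in HIP in limma. C330006P03Rik was lower in all regions, by 0.64 in PFC, by 0.45 in NAc (SE 0.19) and by 0.59 in HIP (SE 0.18). Inmt was higher in all regions, by 0.83 in PFC, by 0.26 in NAc (SE 0.09) and by 0.35 in HIP (SE 0.12). Sgk1 was higher by 0.64 in NAc (SE 0.24) and by 0.87 in HIP (SE 0.19), and Tsc22d3 by 0.71 (SE 0.17) and 0.38 (SE 0.17).

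Whether the drug difference in PFC differed from its mean in NAc and HIP was tested on 27 arrays with the pool of mice as a random block. Of 18610 transcripts 559 (3.00%) passed an unadjusted p of 0.05, against 930.5 that chance would give, and 0 passed an adjusted p in limma. Bdnf was among the 5 transcripts with the smallest p in the negative direction. Its difference was -0.48 in PFC, -0.04 in NAc (SE 0.10) and -0.02 in HIP (SE 0.09), and the test between regions gave -0.45 (SE 0.11, adjusted p = 1). The PFC values that chose Bdnf also enter this test. The others in that direction were LOC621824, 9530064J02, C430014K11Rik and the polycystin gene Pkd1, at -0.47 to -0.39. In the positive direction they were LOC100039128, Prei3, the calcium-binding protein gene S100a6, Gdf10 of the TGF-beta family and 6430514E13Rik, at 0.28 to 0.43.

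**Figure D5:**
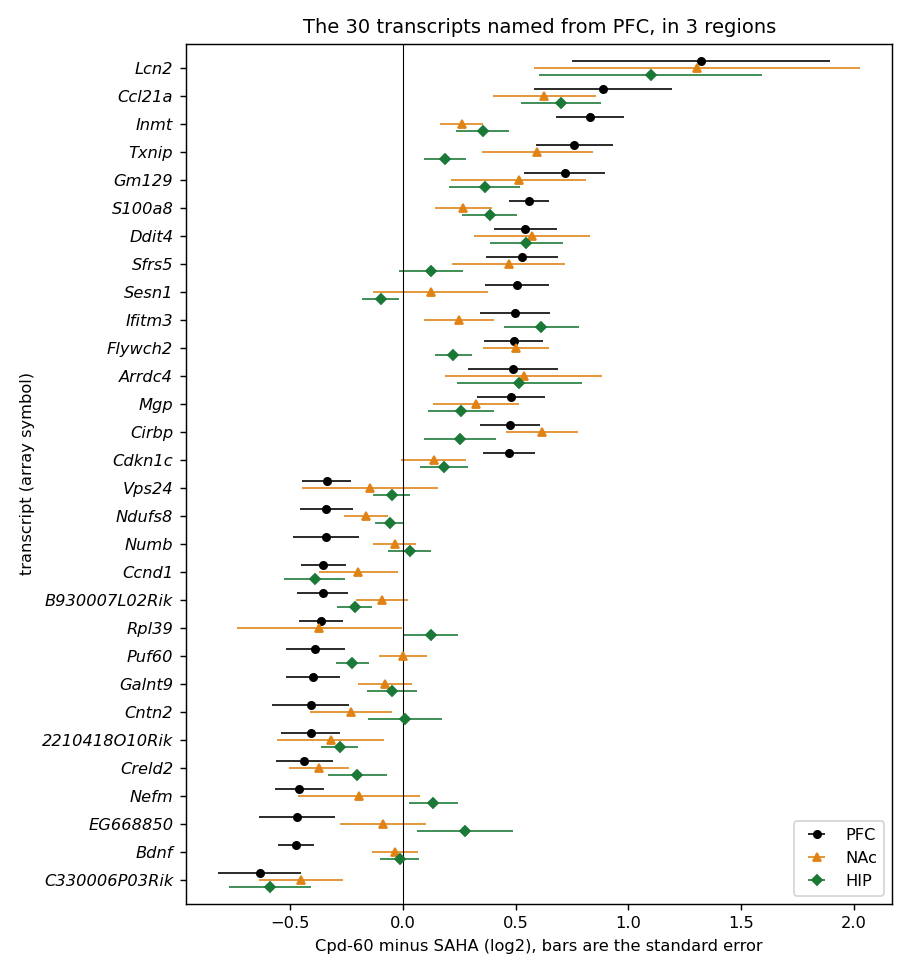
Log2 difference between Cpd-60 and SAHA (x axis) in PFC, NAc and HIP for the 30 genes named from PFC (y axis), with bars of 1 standard error from limma and 3 pools of mice per drug and region. Differences of Bdnf are -0.48 in PFC and near 0 in the other regions, while those of Ddit4 lie between 0.54 and 0.57 in all regions.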

How the data were processed

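RNA of 2 mice per pool was hybridized by the authors to Illumina MouseWG-6 BeadChips, and raw intensity, on a linear scale for 45281 probes per array, was deposited neither background-subtracted nor normalized. A detection p-value of each probe was deposited beside it. The scanner software is not given in the sources used here. Quantile normalization was run jointly on 27 arrays, those of the vehicle, Cpd-60 and SAHA mice, with limma 3.58.1 in R 4.3.3. A floor of 1 was set before conversion to log2 values. A transcript was tested if, in any PFC group, its detection p did not exceed 0.2 on each of the 3 arrays, which is how the present call of the study's methods was read. The 9 PFC arrays of these 3 treatments were fitted with lmFit and eBayes without covariates, two-sided, and adjusted by Benjamini-Hochberg over the 21513 transcripts. NAc and HIP were fitted in the same way. The test between regions used duplicateCorrelation, with the pool as block and a consensus correlation of 0.0047. CI-994 was set against vehicle after normalization of all 36 arrays.

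Each gene is represented by its brightest tested probe on average. Named genes had an unadjusted p under 0.05, at least 1.2-fold, all 3 pools of one drug above all 3 of the other and a detection p not above 0.05 in the higher group, and the 15 largest differences per direction were taken. The genes the study names, list members past the threshold and the 5 transcripts per direction with the smallest p between regions were added. The comparison, the rules and all 36 gene lists were chosen with earlier results of these data known. Lists are described by counts and medians without a test, and some of their members are not reported here by name. Symbols are those of the deposited table, with current names from RefSeq. The fit was tested on simulated data. Median raw intensity of the PFC arrays of both drugs and vehicle was between 85.6 and 107.4, and 32.8% to 38.2% of probes were detected (p not above 0.01). Precision is limited by how few arrays there are. The alternatives were neqc normalization (offset 16), quantile normalization of the PFC arrays alone, CI-994 arrays included, the drug arrays alone in the fit, a stricter detection p (0.01), dropping that filter, blocks for the BeadChip or the pool number, the methods' analysis of variance with Tukey's test, and each pool left out. Array weights, and 2 pools a group (omitting Cpd-60 pool 3, SAHA pool 1 and vehicle pool 3), were added after seeing the data.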

Additional observations from a re-analysis of the deposited data

Results flagged for a closer look

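For 6 of the 30 genes named in PFC, the difference between Cpd-60 and SAHA in PFC differed from its mean in NAc and HIP at an unadjusted p under 0.05 in limma, and none passed after adjustment. Over all transcripts in this test the share was 3.00%. The gap was 0.52 for Inmt (SE 0.17), 0.49 for Sesn1 (SE 0.23), -0.34 for Numb (SE 0.16), -0.34 for Galnt9 (SE 0.16), -0.56 for EG668850 (SE 0.27) and -0.45 for Bdnf (SE 0.11) on the log2 scale. The genes were chosen for a large difference in PFC, and the PFC values enter this test.

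The benzamide CI-994 at 10 mg/kg was not part of the comparison. Its 3 PFC pools differed from vehicle at an unadjusted p under 0.05 in limma for 3.77% of all transcripts. At that threshold 6 of the named genes differed, none after adjustment. They were Cdkn1c at 0.30 (SE 0.13), B930007L02Rik at 0.27 (SE 0.11), Rpl39 at 0.29 (SE 0.10), Galnt9 at -0.26 (SE 0.12), Bdnf at -0.27 (SE 0.08) and C330006P03Rik at -0.57 (SE 0.18). B930007L02Rik and Rpl39 were thus above vehicle under CI-994, the opposite of their sign for Cpd-60 against SAHA. Cpd-60 against the same vehicle pools gave -0.55 for Bdnf and -0.80 for C330006P03Rik, and both comparisons share those pools.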

How the results depend on the processing

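None of the 30 named genes changed direction under any of the 20 alternatives. The naming rule kept the pools of the drugs apart, so leaving out or weighting pools could not reverse a difference. Settings that changed only the filter, the vehicle pools or the test left the differences as they were. Of the 30 genes, 19 lost their call under the methods' analysis of variance and up to 7 without 1 pool (SAHA pool 2). Lcn2 lost its call under 10 of the 20. The count of 309 (173 higher, 136 lower) was 1204 (600 and 604) with neqc, 104 (71 and 33) with the methods' analysis of variance, 852 (396 and 456) with array weights and 1556 (687 and 869) with 2 pools a group, of which 367 passed an adjusted p. Leaving out 1 pool gave 287 to 1318 transcripts, 146 to 633 higher and 119 to 685 lower, with 0 to 7 past an adjusted p.

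Glucocorticoid-induced genes numbered 12 as higher, 4 with the analysis of variance, 19 with weights and 21 with 2 pools a group, and 7 to 20 without 1 pool. Histone genes numbered 7 as lower, then 2 with neqc, 0 with the analysis of variance, 11 with weights, 12 with 2 pools a group and 1 to 12 without 1 pool. Immediate early genes numbered 3, then 1, 6 and 10 in the last 3 of those settings and 1 to 7 without 1 pool. Heat shock genes numbered 5, then 3 with neqc, 3 with the drug arrays alone in the fit, 1 with the analysis of variance, 10 with 2 pools a group and 2 to 6 without 1 pool. Oligodendrocyte genes numbered 3, then 0, 9 and 10 with the analysis of variance, weights and 2 pools a group, and 0 to 9 without 1 pool. The test between regions gave 559, or 944 with the BeadChip as a block, and 349 to 1139 without 1 pool. The cause of these changes was not tested.

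Deviations of same-numbered Cpd-60 and SAHA pools had correlations of -0.30, 0.21 and -0.22, and those of differently numbered pools -0.28 to 0.38. The arrays set apart on the first principal component enter these values. They therefore cannot decide whether the numbers pair the pools. With the pool number as a replicate block the count was 355 and that of immediate early genes 5. A limma fit within each BeadChip, added after seeing the data, had 2 residual degrees of freedom in one and 1 in the other and took the drug with 1 pool to vary like the other groups. It gave 3081 transcripts (1496 and 1585) and 3720 (1784 and 1936), of which 685 and 1613 passed an adjusted p. Immediate early genes numbered 7 and 6, oligodendrocyte genes 13 and 2, and glucocorticoid-induced genes 15 and 7. Signal over background limits low-intensity transcripts such as Lcn2 under SAHA, and doses, volumes and drugs cannot be told apart.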
